A study of Mus musculus with 17 samples.

Results

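Gene expression in spermatocytes that lack Dnmt3l was compared with that in wild-type (WT) spermatocytes at the leptotene and zygotene stages (L/Z) of meiotic prophase. The comparison rested on 4 of the 17 RNA libraries of the series, 2 from Dnmt3l knockout (KO) and 2 from WT animals, and on the 14662 of 23980 annotated genes that passed a filter on low counts. All 4 libraries came from mice of the C57BL/6J strain, 3 to 4 weeks old, and their L/Z cells were isolated by fluorescence-activated cell sorting. Poly(A) RNA was read as stranded, single 50-bp reads. Beside these, 2 libraries of Pld6 KO L/Z spermatocytes shared the same WT controls and are given side by side only where their values help to read a gene. According to the study, germ cells of the mutants die late in zygotene, so WT testes of this age also hold later spermatocytes and spermatids that mutant testes lack, and the sort had to remove them. The labels call the libraries of a group biological replicates without saying which animals they came from, so p-values measure the spread between these libraries.

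Dnmt3l is a catalytically inactive partner of the de novo DNA methyltransferases and is needed in fetal male germ cells for the methylation of retrotransposons and paternally imprinted loci. Meiotic prophase begins as differentiating spermatogonia respond to retinoic acid and replicate their DNA. In leptotene, chromosome axes form and SPO11 makes the programmed double-strand breaks. In zygotene, homologous chromosomes pair and the synaptonemal complex assembles between them, and in pachytene a new set of genes for late meiosis and sperm formation is switched on while the X and Y chromosomes are silenced.

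The targeted gene was read first. Dnmt3l had 19 and 11 fragments in the WT libraries and 0 and 0 in the Dnmt3l KO libraries, at least 3.12-fold lower with a floor of 3 counts per library (edgeR adjusted p = 0.0278). The libraries held 5194238 to 14578341 assigned fragments, with the fewest in Dnmt3l KO replicate 1. In WT replicate 1 the rRNA precursor Rn45s took up 8.27% of the fragments, against 0.134 to 0.301% in the other 3 libraries. Both WT libraries were relatively high in GC-rich genes and both Dnmt3l KO libraries in GC-poor genes. Across 14537 genes, the Spearman rho between a library's deviation from the mean of the 6 L/Z libraries and the GC content of the transcript was 0.360 and 0.346 in WT and -0.283 and -0.440 in Dnmt3l KO. Because this difference runs with the genotype, results are also given from a fit with an offset for GC content and length in each library. In that fit the edgeR adjusted p of Dnmt3l was 0.0567. The part of base composition in a difference between the genotypes was not tested beyond that fit.

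A gene was called higher or lower when its Benjamini-Hochberg adjusted p was under 0.05 and its fold change over 2 in edgeR's two-sided quasi-likelihood test. Of the 14662 genes tested, 802 (5.47%) were called, 570 higher (3.89%) and 232 lower (1.58%) in Dnmt3l KO. The libraries of the groups did not overlap for 801 of the 802 called genes, and for 55.7% of all genes tested. Most changes were moderate: 453 of the 570 genes that rose did so by 2- to 4-fold and 428 of them had at least 10 CPM (counts scaled to a library of fixed size) in WT, whereas 83 rose more than 8-fold and 80 had less than 1 CPM in WT. Among the genes that fell, 174 changed by 2- to 4-fold and 30 by more than 8-fold. With the offset for GC content and length, 230 genes (1.57%) were called, 181 higher (1.23%) and 49 lower (0.334%).

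These counts rested heavily on single libraries. Without Dnmt3l KO replicate 1, 1 gene was called, Gc, the vitamin D binding protein. Without WT replicate 1, the library rich in Rn45s, 149 were called. Fold changes moved less than the calls. Of the 570 genes called higher, 397 stayed past 2-fold without Dnmt3l KO replicate 1 and 409 without WT replicate 1. Of the 232 called lower, 193 and 199 did. The genes had been selected for large changes in these same libraries, so such counts are a description and not support. Past 2-fold in every fit that left out 1 library were 321 of the genes called higher and 159 of those called lower. Of these, 141 and 45 were also called with the offset.

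To place the changes in meiosis, 9 lists of genes that mark successive steps from spermatogonia to spermatids were examined. Beyond the called genes with the highest CPM, the called gene of each list with the largest rise or fall, and the defining markers, the genes described here were chosen after their values were seen. The lists that mark early meiotic prophase lay above the median of all genes (-0.04 on the log2 scale), with medians of 0.51 for meiotic entry, 0.92 for the synaptonemal complex and chromosome axis, 0.60 for double-strand breaks and recombination and 0.92 for telomere attachment. The medians of differentiating and undifferentiated spermatogonia were -0.67 and -0.30. When single libraries were left out they ranged from -1.16 to -0.40 and from -1.33 to 0.02, and undifferentiated spermatogonia were the lower of the 2 without Dnmt3l KO replicate 2 and without WT replicate 2. The medians of premeiotic DNA replication (-0.01), pachytene onset (0.18) and spermatids (0.09) were nearer to that of all genes.

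**Figure D1:**
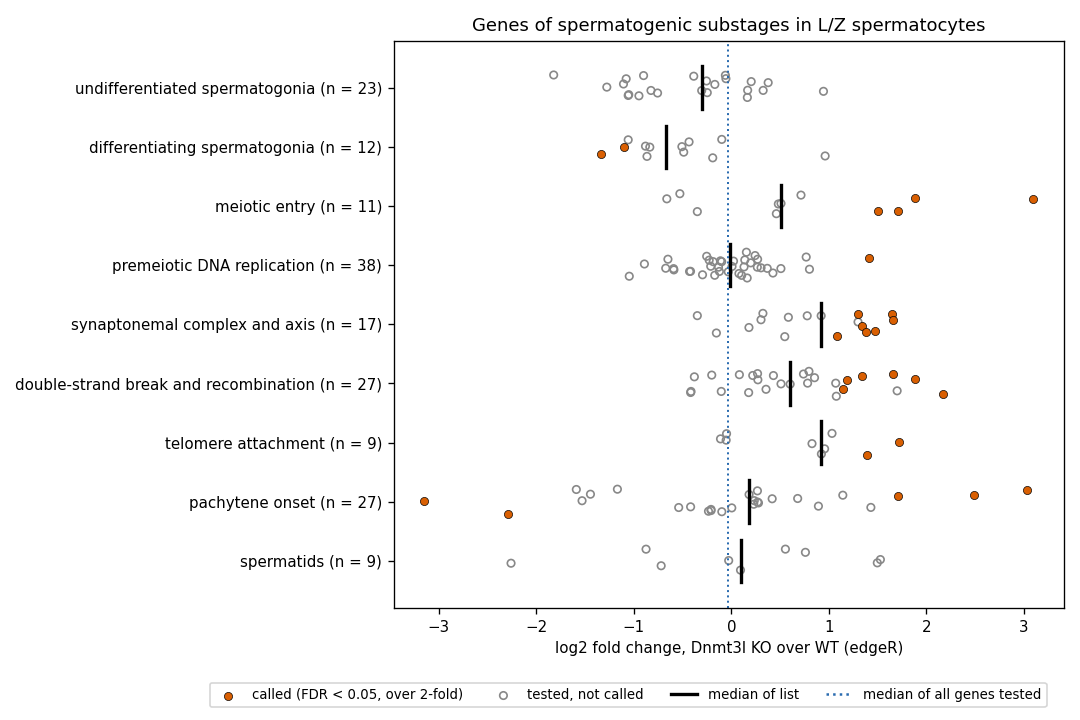
Log2 fold change in Dnmt3l KO over WT for every tested gene of the 9 substage lists, with filled points for called genes, open points for genes not called, a black bar for the median of each list and a dotted line for the median of all genes tested. Called genes of meiotic entry, the synaptonemal complex and axis, recombination and telomere attachment all lie to the right, and both called genes of differentiating spermatogonia lie to the left.

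Genes of the spermatogonial stem cell pool gave no call. Of 23 tested genes of undifferentiated spermatogonia, 0 were called by edgeR, 6 had an unadjusted p under 0.05 and DESeq2 called 2 lower. Zbtb16, a transcription factor of the stem cell pool, read 123 and 53 CPM in WT and 27 and 65.6 CPM in Dnmt3l KO, so the groups overlapped. Gfra1, the GDNF receptor of stem spermatogonia, overlapped too, with 28.7 and 15.5 CPM in WT and 17.4 and 31.5 CPM in Dnmt3l KO.

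Among 12 genes of differentiating spermatogonia 2 fell (16.7%, beside 1.58% of all genes), Dmrtb1 and Sohlh1. Dmrtb1, a DM domain factor of the transition from spermatogonia to meiosis, stood at 157 and 215 CPM in WT and 63 and 83.7 CPM in Dnmt3l KO (log2 fold change -1.33 ± 0.25, SE, edgeR adjusted p = 0.0178). Sohlh1, a helix-loop-helix factor of differentiating spermatogonia, stood at 131 and 101 CPM and 42.2 and 64.8 CPM (log2 fold change -1.11 ± 0.25, SE, edgeR adjusted p = 0.0291). In both genes each Dnmt3l KO library lay below each WT library, and neither was called with the offset. Kit, the receptor that defines differentiating spermatogonia, had 325 and 268 CPM in WT and 246 and 194 CPM in Dnmt3l KO and was not called (edgeR adjusted p = 0.254). Dmrt1, another DM domain factor, had 529 and 550.0 CPM and 189 and 414 CPM and was not called either (edgeR adjusted p = 0.124). The summed level of the list was 2486 and 2830.4 CPM in WT against 1818 and 2191 CPM in Dnmt3l KO, and 1924 and 2109 CPM in Pld6 KO. In sorted bulk cells, fewer cells of a stage and less RNA of its genes per cell cannot be told apart.

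Of 11 genes of meiotic entry 4 rose, beside the 3.89% of all genes, and with the offset 3 of the 4 were still called. The largest rise was that of Ccnb3, a cyclin of leptotene and zygotene encoded on the X chromosome (chrX:6979652-7041635, GRCm38.p6). Ccnb3 read 77.6 and 89.9 CPM in WT and 825 and 611 CPM in Dnmt3l KO. Both Dnmt3l KO libraries were several times higher than both WT libraries (log2 fold change 3.099 ± 0.31, SE, edgeR adjusted p = 0.00109), and the gene was called with the offset as well (edgeR adjusted p = 0.0036). When single libraries were left out, its log2 fold change ranged from 2.85 to 3.30. In Pld6 KO, measured against the same WT libraries, Ccnb3 read 258 and 456 CPM.

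The sequence just upstream of Ccnb3 is shown because the gene had the largest rise among the genes of early meiosis. It comes from RefSeq (GRCm38.p6, chrX:7041636-7041869, minus strand) and holds the 234 bases up to the annotated start. The capitals mark GCAGTT, the core of a MYB family site, which occurs at 2 places. This window holds 9 CG dinucleotides.
Ccnb3: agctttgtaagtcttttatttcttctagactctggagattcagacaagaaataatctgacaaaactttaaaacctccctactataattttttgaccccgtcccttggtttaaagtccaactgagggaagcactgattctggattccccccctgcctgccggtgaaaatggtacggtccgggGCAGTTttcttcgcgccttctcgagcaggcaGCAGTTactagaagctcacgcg
On either strand (GCAGTT or AACTGC), this hexamer was found in 10.5% of the promoters of genes called higher, in 7.26% of those called lower and in 10.02% of the 11609 promoters of all genes tested. Its presence is a description of the sequence, and no binding was measured.

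The other genes of meiotic entry that rose bind RNA or mark sites of recombination. Gm1564 (Meioc), which holds germ cells in the meiotic programme, had 221 and 303 CPM in WT and 989.6 and 727 CPM in Dnmt3l KO (log2 fold change 1.71 ± 0.28, SE, edgeR adjusted p = 0.0113). Its partner Ythdc2, an RNA helicase that binds N6-methyladenosine, had 109 and 147 CPM and 419 and 309 CPM (log2 fold change 1.51 ± 0.25, SE, edgeR adjusted p = 0.0124). Prdm9 (chr17:15543072-15564374), the histone methyltransferase that chooses the sites of recombination, rose from 67.2 and 130.0 CPM to 394 and 334 CPM (log2 fold change 1.88 ± 0.30, SE, edgeR adjusted p = 0.0107). In all 3 genes every Dnmt3l KO library lay above every WT library, and Gm1564 and Prdm9 were also called with the offset. Stra8, the retinoic acid target that starts meiosis, did not follow them: it read 157 and 254 CPM in WT and 199 and 368 CPM in Dnmt3l KO, with overlapping groups (edgeR adjusted p = 0.357). Rec8, the meiotic cohesin subunit switched on at entry, overlapped as well, at 28.5 and 48.3 CPM in WT and 28.4 and 31.7 CPM in Dnmt3l KO.

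Genes of premeiotic DNA replication were close to the background. Of 38 tested, 1 rose (2.63%, beside 3.89% of all genes), Ccne2, a cyclin of the G1 to S transition. Ccne2 had 49.1 and 56.1 CPM in WT and 134 and 145 CPM in Dnmt3l KO (log2 fold change 1.41 ± 0.22, SE, edgeR adjusted p = 0.00871). Pcna, the sliding clamp of DNA polymerases, had 252 and 312 CPM and 259 and 348 CPM, and the replicative helicase subunit Mcm5 had 353 and 411 CPM and 456 and 487 CPM. The WT and Dnmt3l KO sums over this list overlapped, at 5495 and 6209 CPM and 5551 and 6511 CPM.

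**Figure D2:**
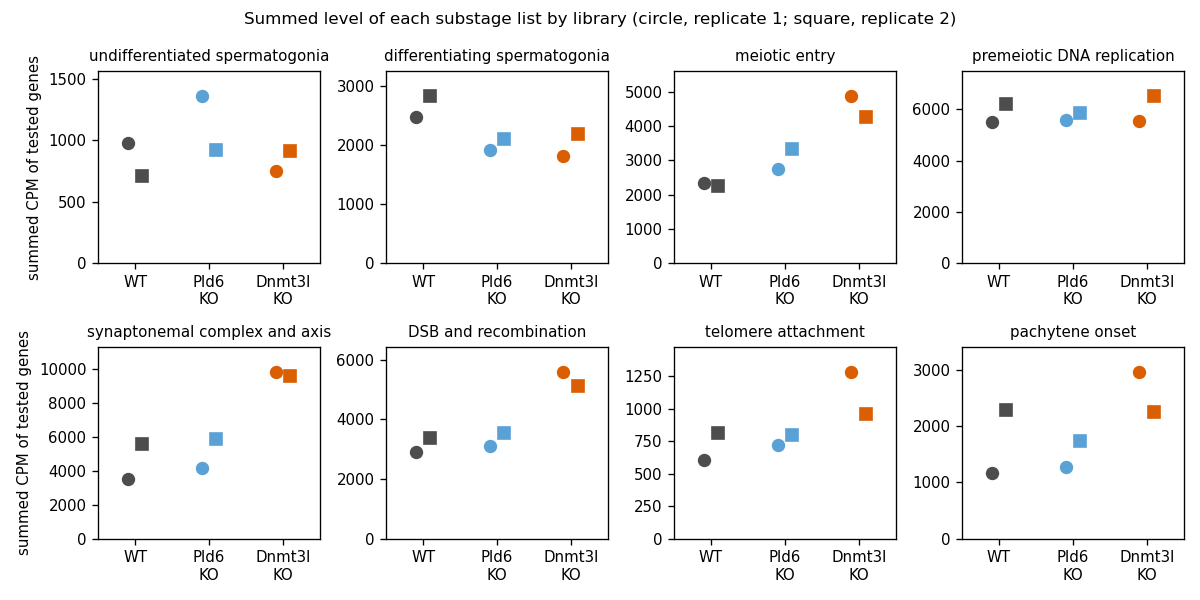
Summed CPM of the tested genes of 8 substage lists in each L/Z library, with 1 panel per list, circles for replicate 1 and squares for replicate 2. Both Dnmt3l KO libraries lie above both WT libraries for meiotic entry, synaptonemal complex and axis, recombination and telomere attachment, below them for differentiating spermatogonia, and overlap them for undifferentiated spermatogonia, DNA replication and pachytene onset.

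The synaptonemal complex and axis list had the largest share of rises among all lists examined, 7 of 17 tested (41.2%, all genes 3.89%). Its summed level was 3533 and 5608 CPM in WT, 9854 and 9604 CPM in Dnmt3l KO and 4171 and 5897 CPM in Pld6 KO. Hormad1, a HORMA domain protein that marks axes not yet synapsed, read 176 and 385 CPM in WT and 990.0 and 779 CPM in Dnmt3l KO (log2 fold change 1.66 ± 0.39, SE, edgeR adjusted p = 0.0317). Its paralogue Hormad2 read 24.6 and 46.1 CPM and 112 and 85.2 CPM (log2 fold change 1.48 ± 0.31, SE, edgeR adjusted p = 0.0234). Sycp1, the transverse filament of the synaptonemal complex, had 557 and 834 CPM in WT and reached 1763 and 1670.0 CPM in Dnmt3l KO (log2 fold change 1.304 ± 0.31, SE, edgeR adjusted p = 0.0339). Both libraries of Dnmt3l KO were higher than both of WT in each of these genes. Sycp2, a protein of the lateral element, rose from 498 and 839.5 CPM to 1929 and 1452 CPM (log2 fold change 1.34 ± 0.32, SE, edgeR adjusted p = 0.0342). 4930447C04Rik (Six6os1), a protein of the central element, rose from 124 and 215 CPM to 526 and 540.4 CPM (log2 fold change 1.65 ± 0.30, SE, edgeR adjusted p = 0.0145).

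Sycp3, the other lateral element protein and the usual stain for chromosome axes, moved by about as much but with more spread. It read 254 and 579.8 CPM in WT and 1015 and 1037 CPM in Dnmt3l KO, and was not called (log2 fold change 1.300 ± 0.39, SE, edgeR adjusted p = 0.0692). WT replicate 1 was the lower WT library for Sycp1, Sycp2, Sycp3, Hormad1 and Hormad2. With the offset for GC content and length the calls of the 7 axis genes were lost (edgeR adjusted p from 0.0618 to 0.429), while the median of the list was 0.55. The transcripts of this list were GC-poor, with a median of 41.9% against 50.9% for all genes tested. When single libraries were left out, the median of the list was 0.55 to 1.41.

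The promoters of Hormad1 and Sycp1 are shown because both genes rose and belong to the germline genes whose promoters are methylated in somatic cells. The capitals mark CACGTG, the E-box, which reads the same on both strands. In RefSeq (GRCm38.p6) the Hormad1 window is chr3:95559427-95559676 on the plus strand, with 19 CG dinucleotides, and holds the E-box at -57 to -52 and at -20 to -15. The Sycp1 window is chr3:102936101-102936350 on the minus strand, with 17 CG dinucleotides, and holds it at -94 to -89.
Hormad1: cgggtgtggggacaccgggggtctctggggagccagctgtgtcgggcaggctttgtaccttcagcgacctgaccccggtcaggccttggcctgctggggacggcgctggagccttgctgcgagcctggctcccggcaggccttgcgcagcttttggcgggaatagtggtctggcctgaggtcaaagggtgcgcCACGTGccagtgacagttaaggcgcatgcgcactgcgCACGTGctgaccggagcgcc
Sycp1: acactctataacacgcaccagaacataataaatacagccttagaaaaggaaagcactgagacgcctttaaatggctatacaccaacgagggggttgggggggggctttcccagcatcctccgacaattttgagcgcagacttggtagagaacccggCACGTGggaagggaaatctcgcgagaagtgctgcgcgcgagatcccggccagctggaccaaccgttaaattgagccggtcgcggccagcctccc
The E-box was found in 6 of 16 promoters of the axis list (37.5%) and in 10 of 17 promoters of the promoter-methylated germline genes (58.8%), against 8.48% of the promoters of all genes tested. Among the genes called higher it was found in 8.57%, close to that share. The other motifs searched on both strands were the E2F site GGCGGGA, in 19.12% of promoters of genes called higher and 18.0% of all, and the cyclic AMP response element TGACGTCA, in 3.08% and 2.72%.

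Of 27 genes of double-strand breaks and recombination, 6 rose (22.2%, beside 3.89% of all genes): Meiob, Prdm9, Spata22, Dmc1, Msh5 and Hfm1. Meiob, a single-stranded DNA binding protein that stabilises recombinases, read 36.2 and 98.5 CPM in WT and 371 and 238 CPM in Dnmt3l KO (log2 fold change 2.17 ± 0.45, SE, edgeR adjusted p = 0.0233). Its partner Spata22 read 26 and 58.6 CPM and 141 and 127 CPM (log2 fold change 1.66 ± 0.35, SE, edgeR adjusted p = 0.0234). Both had their lowest value in WT replicate 1 and their highest in Dnmt3l KO replicate 1. Dmc1, the recombinase specific to meiosis, stood at 118 and 232 CPM in WT and at 456 and 434 CPM in Dnmt3l KO (log2 fold change 1.35 ± 0.30, SE, edgeR adjusted p = 0.0272). Msh5, which stabilises crossover intermediates, stood at 49.5 and 93.8 CPM and 188 and 138 CPM (log2 fold change 1.18 ± 0.29, SE, edgeR adjusted p = 0.0354). Hfm1, a helicase for crossover formation, stood at 113 and 215 CPM and 357 and 367 CPM (log2 fold change 1.14 ± 0.29, SE, edgeR adjusted p = 0.0379). With the offset, Prdm9 and Msh5 were still called.

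Spo11, which cuts the DNA to start recombination, had 19.6 and 44.9 CPM in WT and 76.8 and 59 CPM in Dnmt3l KO. The groups did not overlap but the difference was not called (log2 fold change 1.07 ± 0.35, SE, edgeR adjusted p = 0.0834). The summed level of the recombination list was 2903 and 3365 CPM in WT, 5599 and 5118 CPM in Dnmt3l KO and 3116 and 3540.3 CPM in Pld6 KO. Its median was 0.40 to 0.86 when single libraries were left out and 0.49 with the offset.

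Telomere attachment, by which chromosome ends are tied to the nuclear envelope for pairing, gave 2 rises among 9 genes. The share was 22.2%, beside 3.89% of all genes. 4933406J08Rik (Terb2) read 8.47 and 16.2 CPM in WT and 39 and 42.2 CPM in Dnmt3l KO (log2 fold change 1.72 ± 0.33, SE, edgeR adjusted p = 0.0182). Ccdc79 (Terb1), its partner in the telomere complex, read 26 and 51.8 CPM and 97.8 and 106 CPM (log2 fold change 1.39 ± 0.30, SE, edgeR adjusted p = 0.0251). Both genes were higher in each Dnmt3l KO library. Ccdc155 (Kash5), the dynein adaptor at the nuclear envelope, was not called (39.3 and 79.1 CPM and 143 and 99.9 CPM, edgeR adjusted p = 0.07) but was called with the offset (edgeR adjusted p = 0.0462).

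Of 18 cohesin genes, 3 rose (16.7%, beside 3.89% of all genes). They were Smc1b and Rad21l, already counted among the axis genes, and Nipbl, which loads the ring onto chromatin. With the offset these 3 calls were lost (edgeR adjusted p from 0.0688 to 0.238), and the median of the list went from 0.62 to 0.16. Smc1b, a subunit found in meiosis, read 542 and 814 CPM in WT and 1264 and 1618 CPM in Dnmt3l KO (log2 fold change 1.09 ± 0.29, SE, edgeR adjusted p = 0.0447). Rad21l, the kleisin of early prophase, read 28.9 and 41.1 CPM and 81 and 101 CPM (log2 fold change 1.38 ± 0.24, SE, edgeR adjusted p = 0.0133). Stag3, the meiotic subunit that binds both kleisins, was not called, at 475 and 669 CPM and 1055 and 907 CPM (edgeR adjusted p = 0.0798). Of 15 DNA damage checkpoint genes 1 rose (6.67%, beside 3.89% of all genes), Mdc1 (chr17:35841495-35859670). It is the adaptor that spreads the phosphorylated H2AX mark along unsynapsed chromatin. Mdc1 read 259 and 371 CPM in WT and 1049 and 828 CPM in Dnmt3l KO (log2 fold change 1.57 ± 0.26, SE, edgeR adjusted p = 0.0113), and had the highest CPM among the genes called with the offset and past 2-fold in every fit without 1 library. Of 15 targets of p53, 0 were called by edgeR, 5 had an unadjusted p under 0.05, and DESeq2 called 1 lower, while with the offset Ccng1, a cyclin induced by p53, was called lower.

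**Figure D3:**
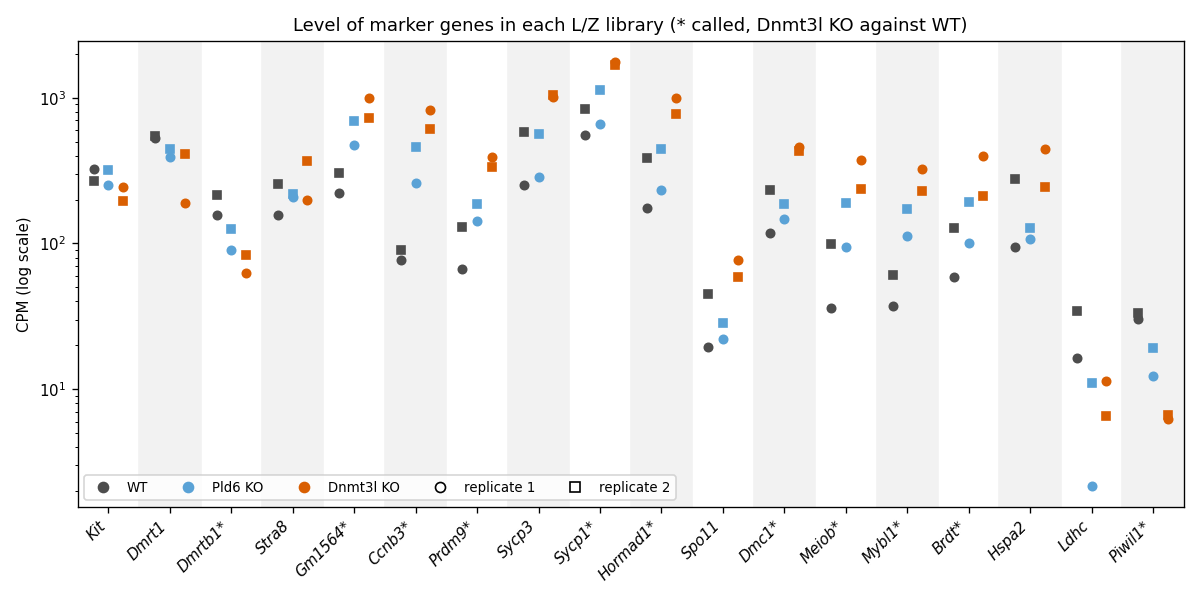
CPM on a log scale of 18 marker genes, ordered from spermatogonia to pachytene, in each library of WT (grey), Pld6 KO (blue) and Dnmt3l KO (orange), with circles for replicate 1 and squares for replicate 2. Both Dnmt3l KO libraries lie above both WT libraries from Gm1564 to Brdt, below them for Kit, Dmrt1, Dmrtb1, Ldhc and Piwil1, and overlap them for Stra8 and Hspa2.

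Genes that are switched on at the onset of pachytene did not move together. Of 27 tested, 3 rose (11.1%) and 2 fell (7.41%), beside 3.89% and 1.58% of all genes. The summed level overlapped between the groups (1160.4 and 2301 CPM in WT, 2977 and 2259 CPM in Dnmt3l KO). Mybl1 (A-MYB, chr1:9667407-9700439), the transcription factor that drives pachytene genes, rose: it read 37.2 and 60.7 CPM in WT and 325 and 227 CPM in Dnmt3l KO (log2 fold change 2.49 ± 0.31, SE, edgeR adjusted p = 0.00345), and it was called with the offset. Brdt, a bromodomain protein of the testis, rose from 58.9 and 127 CPM to 397 and 211 CPM (log2 fold change 1.71 ± 0.42, SE, edgeR adjusted p = 0.0352). The linker histone Hist1h1t (H1f6) rose at a very low level, from 0.254 and 0.34 CPM to 3.8 and 1.5 CPM. It passed the filter on low counts through the mutant libraries, so its part in the count of rises is a description and not support. With the offset the calls of Brdt and Hist1h1t were lost (edgeR adjusted p = 0.104 and 0.0774).

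In contrast, Piwil1 (chr5:128736071-128755474), the PIWI protein of pachytene piRNAs, read 30.2 and 33.2 CPM in WT and 6.2 and 6.66 CPM in Dnmt3l KO. The libraries of each group were close to each other and the groups far apart (log2 fold change -2.29 ± 0.31, SE, edgeR adjusted p = 0.00514), and Piwil1 was called with the offset too (edgeR adjusted p = 0.0154). In Pld6 KO it read 12.4 and 19.2 CPM. Spag6, a protein of the sperm axoneme, fell from 3.13 and 4.93 CPM to 0.2 and 0.573 CPM (log2 fold change -3.15 ± 0.68, SE, edgeR adjusted p = 0.0252). It was not called with the offset (edgeR adjusted p = 0.0628). Ldhc, the lactate dehydrogenase of late spermatocytes, read 16.3 and 34.2 CPM in WT and 11.4 and 6.51 CPM in Dnmt3l KO without passing the test (edgeR adjusted p = 0.129). Hspa2, a chaperone of pachytene, overlapped between groups, at 94.8 and 276 CPM and 444 and 245 CPM.

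Most spermatid genes did not reach the filter on low counts. Of 25 genes on the list, 9 passed the filter and 0 of these were called by edgeR, with 3 at an unadjusted p under 0.05 and 1 called higher by DESeq2. The protamine Prm1 had 4 and 0 fragments in WT and 0 and 0 in Dnmt3l KO, and the acrosomal gene Acrv1 had 0 and 0 and 1 and 1, so neither was tested. Catsper2, a gene of the sperm calcium channel, had means of 15.3 CPM in WT and 26.1 CPM in Dnmt3l KO and was not called (edgeR adjusted p = 0.213). Of the other genes of the piRNA pathway, Tdrd6, a tudor protein of germ granules, had 28 and 44 fragments in WT and 2 and 2 in Dnmt3l KO, at least 7.5-fold lower (edgeR adjusted p = 0.0241). Henmt1, the methyltransferase that protects the 3' ends of piRNAs, fell from 30.7 and 24.3 CPM to 9.2 and 14.9 CPM (log2 fold change -1.16 ± 0.31, SE, edgeR adjusted p = 0.0468). With Piwil1, 3 of 23 genes of this pathway fell (13.0%, beside 1.58% of all genes), and the median of the 23 was 0.09. Tdrd6 passed the filter on low counts through libraries other than those of Dnmt3l KO, so this number is a description and not support. With the offset the calls of Tdrd6 and Henmt1 were lost (edgeR adjusted p = 0.0501 and 0.0952).

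The sex chromosomes stood apart from the autosomes. Of 614 X-linked genes tested, 73 rose (11.9%) and 2 fell (0.326%), whereas of 13968 autosomal genes 489 rose (3.50%) and 229 fell (1.64%). Single autosomes ranged from 1.33% (chromosome 7) to 5.72% (chromosome 12) of genes called higher. X-linked genes had a median log2 fold change of 0.23, against -0.05 on the autosomes. X-linked genes were GC-poorer, and the contrast was also seen within GC classes: among genes below the median GC content 14.3% of 453 X-linked and 6.43% of 6796 autosomal genes rose, and among the others 5.13% of 156 and 0.732% of 7105. With the offset, 4.89% of X-linked and 1.05% of autosomal genes were called higher. Without WT replicate 1 these shares were 2.93% and 0.630%, and without Dnmt3l KO replicate 1, when Gc was the single call, the shares could not be read.

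**Figure D4:**
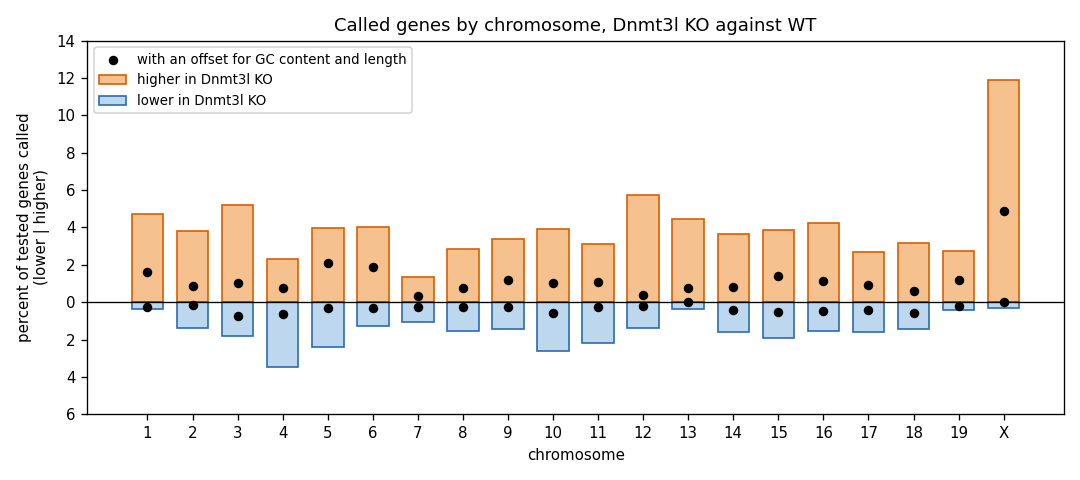
Percent of the tested genes of each chromosome that were called higher (orange, upward) or lower (blue, downward) in Dnmt3l KO, with black points for the same shares in the fit with an offset for GC content and length. The X chromosome has 11.9% of its genes called higher, or 4.89% with the offset, and exceeds every autosome in both.

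Of the 12 Y-linked genes tested 5 rose (41.7%, beside 3.89% of all genes). Among them were Zfy1 and Zfy2, zinc finger genes that are silenced with the sex chromosomes in pachytene. Zfy1 read 19.6 and 17.9 CPM in WT and 111 and 51.6 CPM in Dnmt3l KO (log2 fold change 2.11 ± 0.38, SE, edgeR adjusted p = 0.0139). Zfy2 read 14.6 and 13.8 CPM and 114 and 51.4 CPM (log2 fold change 2.53 ± 0.42, SE, edgeR adjusted p = 0.0113). In both genes Dnmt3l KO replicate 1 was the highest library and replicate 2 was also above WT. The deubiquitinase Usp9y, the RNA helicase Ddx3y and the demethylase-related Uty also rose, and with the offset Zfy2 alone was called. Uba1y, the Y-linked E1 ubiquitin enzyme, gave overlapping values of 484 and 436 CPM in WT and 454 and 529 CPM in Dnmt3l KO. Some of the X-linked partners of these genes rose too: Usp9x from 354 and 303 CPM to 853 and 769.7 CPM and the H3K27 demethylase Kdm6a from 62.8 and 66.6 CPM to 194 and 172 CPM, the latter also with the offset. Reads of near-identical X and Y copies may be shared between them.

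Among the other X-linked genes, Fmr1, an RNA-binding protein, read 256 and 335 CPM in WT and 1362 and 905 CPM in Dnmt3l KO (log2 fold change 1.94 ± 0.32, SE, edgeR adjusted p = 0.0113). Med12, a subunit of the Mediator kinase module, rose from 238 and 207 CPM to 587 and 400.5 CPM and was called with the offset. Xist, the noncoding RNA of X inactivation, read 17.4 and 16.2 CPM in WT and 84.8 and 40.3 CPM in Dnmt3l KO (log2 fold change 1.89 ± 0.35, SE, edgeR adjusted p = 0.0153). Germline gene families of the X gave 11 of the 73 rises, and 6 of the 11 were called with the offset. This was 19.3% of their 57 members tested, beside 11.9% of all X-linked genes. The 11 were Tktl1, a transketolase-like gene, Mageb18, Rhox3a, a reproductive homeobox gene, and 8 genes of the Magea family. Tktl1 rose from 201 and 193 CPM to 649 and 500.4 CPM (log2 fold change 1.55 ± 0.26, SE, edgeR adjusted p = 0.0113). Magea5 read 23.9 and 24.7 CPM in WT and 54.2 and 67.2 CPM in Dnmt3l KO, and the Magea genes together rose by log2 fold changes of 1.17 to 1.53. They are near-identical copies whose reads may be split between them, so they are not separate observations. In Pld6 KO, Magea5 read 23.4 and 20.7 CPM.

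Genes with the highest CPM among those that rose belong to RNA processing as well as to meiosis. Hnrnph1, a splicing regulator, read 470.5 and 829 CPM in WT and 1698 and 1295 CPM in Dnmt3l KO (log2 fold change 1.203 ± 0.32, SE, edgeR adjusted p = 0.0465). It was not called with the offset. Also in this group were Sycp1, Sycp2, Smc1b, Fmr1, Mdc1 and Hormad1, described above.

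Genes with the highest CPM among those that fell serve metabolism and transcriptional control. Fasn, fatty acid synthase, read 641 and 433 CPM in WT and 220.2 and 256 CPM in Dnmt3l KO (log2 fold change -1.17 ± 0.25, SE, edgeR adjusted p = 0.0234). Isyna1, which makes inositol phosphate, read 238 and 225 CPM and 93 and 109 CPM (log2 fold change -1.198 ± 0.20, SE, edgeR adjusted p = 0.0126). Aldoa, a glycolytic aldolase, read 167 and 128 CPM and 53.8 and 75.7 CPM (log2 fold change -1.18 ± 0.25, SE, edgeR adjusted p = 0.0234). In each of the 3 genes both Dnmt3l KO libraries were below both WT libraries. Slc25a39, a mitochondrial carrier, Psmb3, a proteasome subunit, and Tle3, a corepressor, fell as well, by log2 fold changes between -1.06 and -1.19. With the offset the calls of these 6 genes were lost (edgeR adjusted p from 0.0578 to 0.137). Runx3, a transcription factor that was called with the offset and stayed past 2-fold in every fit without 1 library, fell from 54.5 and 58.8 CPM to 13.2 and 17.1 CPM (log2 fold change -1.89 ± 0.24, SE, edgeR adjusted p = 0.0039).

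Of 19 chromatin silencing genes, those of H3K9 methylation and the MORC family, 2 rose (10.5%) and 1 fell (5.26%), beside 3.89% and 1.58% of all genes. Their median was 0.42, with 15 above 0. Fam208a (Tasor), a core subunit of the HUSH silencing complex, read 88 and 95.8 CPM in WT and 255 and 224 CPM in Dnmt3l KO (log2 fold change 1.38 ± 0.21, SE, edgeR adjusted p = 0.00871), and was not called with the offset (edgeR adjusted p = 0.187). Morc2a, an ATPase that works with HUSH, read 226 and 296 CPM and 646 and 545 CPM (log2 fold change 1.19 ± 0.23, SE, edgeR adjusted p = 0.0198) and was called with the offset. The retrocopy Morc2b went the other way, with 50 and 83 fragments in WT and 0 and 2 in Dnmt3l KO, at least 13.9-fold lower. In the DNA methylation list, of 15 genes, Dnmt3l itself was the single call (6.67%), and it was not called with the offset (edgeR adjusted p = 0.0567).

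Germline genes known to be silenced by promoter methylation in other cells gave 3 rises among 19 (15.8%, beside 3.89% of all genes). These were Brdt, Hormad1 and Sycp1, which are also genes of meiotic prophase. With the offset these 3 calls were lost (edgeR adjusted p from 0.104 to 0.314), and the median of the list went from 0.67 to 0.22. At loci whose imprint is paternal, 2 of 8 genes fell (25%, beside 1.58% of all genes), Dlk1 and Dio3 of the same cluster. Dlk1, a transmembrane ligand, read 37.7 and 31.8 CPM in WT and 18.8 and 16.1 CPM in Dnmt3l KO, just past 2-fold (edgeR adjusted p = 0.039). Dio3, a thyroid hormone deiodinase, had 25 and 11 fragments in WT and 0 and 1 in Dnmt3l KO. It passed the filter on low counts through libraries other than those of Dnmt3l KO, so the number of falls is a description and not support. With the offset both calls were lost (edgeR adjusted p = 0.16 for Dlk1 and 0.0813 for Dio3). Of 19 maternally imprinted genes, 0 were called by edgeR, 4 had an unadjusted p under 0.05 and DESeq2 called 1 lower. Of 22 interferon response genes, 0 were called by edgeR or by DESeq2, and 3 had an unadjusted p under 0.05.

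A different set of genes rose from almost no expression. In 45 of the 570 genes called higher, both WT libraries were at or under 3 counts. Plasma protein genes, which are normally made by the liver, include 3 such genes. Of the 21 on the list 12 passed the filter on low counts, and these 3 passed it through the mutant libraries, with WT at 0 or 1 fragments, so their number is a description and not support. The median of the 12 was -0.51, with 7 below 0. Apoh, apolipoprotein H, had 0 and 1 fragments in WT and 126 and 343 in Dnmt3l KO, at least 97.7-fold higher (edgeR adjusted p = 0.00253). In Pld6 KO, Apoh stood at 1.02 and 0 CPM. Gc, the vitamin D binding protein, was at least 107-fold higher and Afm, afamin, at least 37-fold. These 3 genes belong to a list of 37 genes that the study chose from these libraries as rising beside an active retrotransposon, so their direction is not independent evidence. Of the 37, 36 were called higher, and 534 of the 570 genes called higher are not on that list. No gene of the substage lists is on it, and of the other genes described here Fmr1, Cdh19, Robo2, Slit2 and Col4a5 are, so the same holds for their direction.

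Some cell adhesion and guidance genes of the nervous system rose, a few of them from near 0 counts. Of 31 cadherins and protocadherins tested, 5 rose (16.1%, beside 3.89% of all genes): Cdh12, Cdh18, Cdh19, Cdh26 and Pcdh17. Cdh12, Cdh18, Cdh19 and Cdh26 had WT means of 0.0423 to 0.297 CPM. They passed the filter on low counts through the mutant libraries, so their number is a description and not support. The median of the 31 was 0.14, with 17 above 0. Cdh12 had 1 and 2 fragments in WT and 58 and 82 in Dnmt3l KO, at least 34.3-fold higher (edgeR adjusted p = 0.00278). Cdh19 stood at 0.423 and 0 CPM in WT and 15.2 and 10.1 CPM in Dnmt3l KO, with 0.291 and 0.0789 CPM in Pld6 KO. The list has 94 members of the family, and the others did not pass the filter on low counts. Of 60 axon guidance genes 4 rose and 1 fell, beside 3.89% and 1.58% of all genes. The median of the 60 was -0.30, and 43 of them were below 0. Robo2, a receptor for SLIT ligands, rose from 0.508 and 0.085 CPM to 37 and 18.2 CPM (log2 fold change 6.46 ± 0.59, SE, edgeR adjusted p = 8.44e-04), and its ligand Slit2 from 31.3 and 34.2 CPM to 122 and 106 CPM (log2 fold change 1.802 ± 0.22, SE, edgeR adjusted p = 0.00345). In Pld6 KO, Robo2 read 22.2 and 22.6 CPM and Slit2 24.3 and 20.2 CPM. Unc5a, a netrin receptor, fell from 17.2 and 12.6 CPM to 5.8 and 6.08 CPM (log2 fold change -1.32 ± 0.31, SE, edgeR adjusted p = 0.0317).

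Axoneme and cilium genes moved in both directions, with 7 of 54 higher and 4 lower, beside 3.89% and 1.58% of all genes. With the offset, Dnah6 was the single call. Dnah6, a dynein heavy chain, read 0.847 and 0.765 CPM in WT and 18.8 and 7.87 CPM in Dnmt3l KO (log2 fold change 3.997 ± 0.51, SE, edgeR adjusted p = 0.0036), and Tekt1, a filament protein of sperm flagella, 3.22 and 6.89 CPM and 1.4 and 0.787 CPM (log2 fold change -2.29 ± 0.62, SE, edgeR adjusted p = 0.0496). The ADAM family gave 1 gene in each direction among 16 tested (6.25% each). Adam9, a broadly expressed protease, rose from 31.7 and 49.5 CPM to 145 and 99.2 CPM. Adam5, a sperm surface gene, had 35 and 61 fragments in WT and 0 and 0 in Dnmt3l KO, at least 10-fold lower (edgeR adjusted p = 0.00871). Of 40 collagens 2 rose (5%) and 1 fell (2.5%). Their median was -0.42, with 28 below 0, and it was 0.21 without WT replicate 1. Col4a5 of basement membranes rose from 8.89 and 8.67 CPM to 70.4 and 29.6 CPM. Col16a1 fell from 24.1 and 20.9 CPM to 4.2 and 3.94 CPM, and both were called with the offset.

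Transcription factors of embryonic development gave more falls than rises. Of 95 tested 8 fell and 1 rose, beside 1.58% and 3.89% of all genes, and the median was -0.65, or -0.26 with the offset. Tbx1, a T-box factor, read 50.4 and 81.4 CPM in WT and 17.8 and 22.8 CPM in Dnmt3l KO (log2 fold change -1.68 ± 0.31, SE, edgeR adjusted p = 0.015). Sox3, an X-linked factor of spermatogonia, read 81.7 and 74.3 CPM and 25.8 and 46.7 CPM (log2 fold change -1.09 ± 0.28, SE, edgeR adjusted p = 0.0404). Dlx1, a homeobox factor, read 11.2 and 9.01 CPM and 1 and 2.65 CPM (log2 fold change -2.34 ± 0.59, SE, edgeR adjusted p = 0.0384). The TALE homeobox gene Pbx3 rose, from 48.2 and 97.4 CPM to 198 and 204 CPM, and of these 9 genes it was the single one called with the offset. These genes were GC-rich, with a median of 56%.

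Solute carriers, but not ion channels, showed shares close to those of all genes. Of 128 ion channel genes 3 rose (2.34%) and 6 fell (4.69%), beside 3.89% and 1.58% of all genes. Kcnh1, a potassium channel, rose from 0.508 and 0.255 CPM to 17.2 and 10.4 CPM (log2 fold change 5.12 ± 0.88, SE, edgeR adjusted p = 0.0126) while Kcnj4, an inward rectifier, fell from 17.4 and 18.2 CPM to 5.8 and 4.51 CPM (log2 fold change -1.81 ± 0.32, SE, edgeR adjusted p = 0.0139). With the offset Kcnh1 was the single ion channel call. Of 261 solute carriers 9 rose (3.45%) and 4 fell (1.53%). The glucose transporters moved apart. Slc2a1 rose from 22.7 and 23 CPM to 68.4 and 39.4 CPM and was called with the offset. Slc2a3 fell from 26.3 and 36.9 CPM to 16.6 and 13 CPM and was not called with the offset. Of 342 Zfp zinc finger genes 10 rose (2.92%), led by Zfp72, and 4 fell (1.17%), led by Zfp503.

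Housekeeping families showed few calls. Of 84 cytosolic ribosomal protein genes 1 fell, Rpl26 (1.19%, beside 1.58% of all genes). Rpl26 had 41 and 27 fragments in WT and 0 and 0 in Dnmt3l KO. The median of the family was -0.51, and 4 of the 84 were above 0. It was -0.15 without Dnmt3l KO replicate 1 and -0.96 without Dnmt3l KO replicate 2, and the family summed to 22935 CPM in the former library and 40495 CPM in the latter. Of 76 oxidative phosphorylation genes 1 rose, the ATP synthase factor Atp5s (1.32%, beside 3.89% of all genes). Of 38 proteasome genes 1 fell, Psmb3 (2.63%, beside 1.58%). Of 64 histone genes 2 rose, Hist1h1t and H2bfm (3.125%, beside 3.89%). Histone transcripts mostly lack a poly(A) tail, so these libraries hold part of them only.

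Markers of other testis cells were low but not absent. The 11 Sertoli cell markers summed to 736 and 496 CPM in WT and 457 and 138 CPM in Dnmt3l KO, with a median log2 fold change of -1.24, which was -2.14 without Dnmt3l KO replicate 1 and -0.49 without Dnmt3l KO replicate 2. None was called by edgeR, 6 had an unadjusted p under 0.05 and DESeq2 called 2 lower. Wt1, the defining transcription factor of Sertoli cells, read 36.6 and 26.2 CPM in WT and 18 and 9.3 CPM in Dnmt3l KO, and Sox9 read 15.2 and 6.72 CPM and 7.8 and 1.43 CPM. Macrophage markers summed to 49.9 and 11.3 CPM in WT and 45.8 and 115 CPM in Dnmt3l KO, and 1 of 11 rose (9.09%, beside 3.89% of all genes). This was the mannose receptor Mrc1, from 11 and 2.81 CPM to 28.8 and 23.8 CPM. Peritubular myoid and endothelial markers had overlapping sums. The Leydig cell enzyme Cyp17a1 had 48 and 9 fragments in WT and 0 and 0 in Dnmt3l KO, while Star, the cholesterol transporter of steroid-producing cells, overlapped between groups at 5.93 and 5.36 CPM and 6.6 and 5.08 CPM. Of 6 Leydig markers 3 were tested, with a median log2 fold change of -2.83. Of these 3, 0 were called by edgeR and 2 had an unadjusted p under 0.05. Cyp11a1 and Hsd3b1 had means of 2.67 and 3.06 CPM in WT and 0.215 and 0.322 CPM in Dnmt3l KO (edgeR adjusted p = 0.0975 and 0.0848). Alas2 of red blood cells had 9 and 7 fragments in WT and 1 and 7 in Dnmt3l KO. The part of these cells in the genes that fell was not tested.

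The called genes differed in base composition. Median GC content of the transcripts was 44.4% for genes called higher, 56.9% for those called lower and 51.1% for genes tested and not called, and median length was 2288, 1803 and 1789.5 bp. Of the 162 genes called higher both with and without the offset, Ccnb3, Prdm9, Gm1564, Msh5, Mybl1 and Mdc1 are among the genes of meiotic prophase. Of the 46 called lower both ways, Piwil1, Runx3, Col16a1, Morc2b and Adam5 were among those described above. The early meiotic lists kept positive medians with the offset (0.38 for entry, 0.55 for axis, 0.49 for recombination, 0.86 for telomere attachment), while their calls went from 4, 7, 6 and 2 to 3, 0, 2 and 1, the last being Ccdc155. The lists of this comparison together held 15.1% of the genes called higher, 17.2% of those called lower and 11.6% of the genes tested, so most called genes lie outside them.

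**Figure D5:**
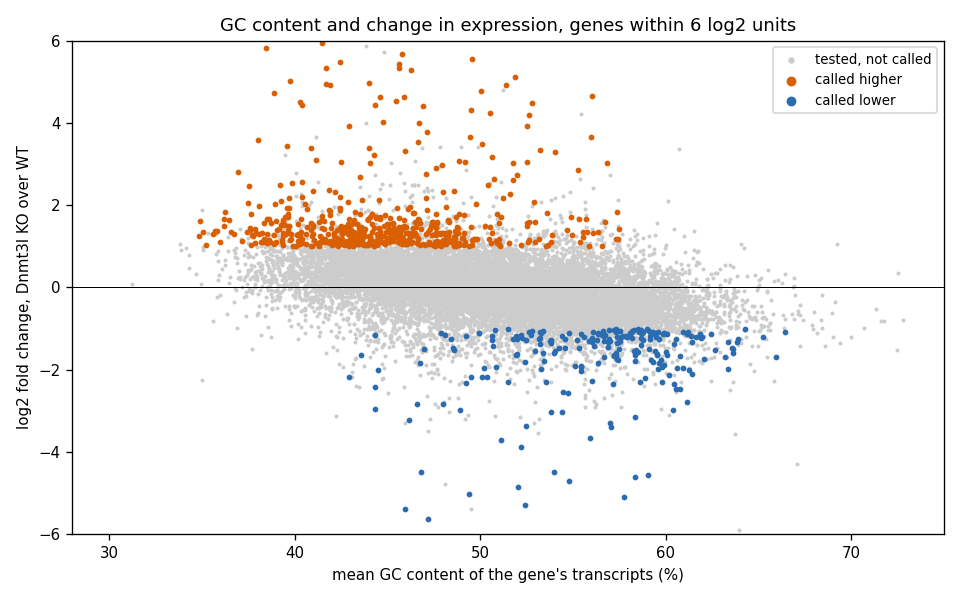
Log2 fold change in Dnmt3l KO over WT against the mean GC content of each gene's transcripts in percent, with grey points for genes not called, orange for genes called higher and blue for genes called lower, within 6 log2 units. Called-higher genes lie mostly to the left (median 44.4%) and called-lower genes to the right (median 56.9%).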

How the data were processed

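Poly(A) RNA of L/Z spermatocytes was sequenced as single 50-bp reads, which the authors aligned to mm10 with TopHat and counted over RefSeq genes with Cuffdiff (versions not given in the sources used here). The deposited table gives each gene's estimated count of fragments per library before scaling, of which 97.51 to 97.93% are whole numbers, and FPKM as scaled by the authors. Counts were rounded, and 6 of 23980 genes without status OK were left out. The edgeR 4.0.16 quasi-likelihood test was run in R 4.3.3 with TMM scaling and filterByExpr on the 6 L/Z libraries (WT, Pld6 KO and Dnmt3l KO), which share an estimate of spread. CPM values use TMM library sizes. The table numbers replicates from 0 and the labels from 1, and the lower was taken as the lower. Single counts carry counting error that falls with depth, from 5194238 fragments per library upward. A fold against libraries at 3 counts or fewer is given as a bound from that floor. Alternatives used DESeq2 1.42.0, limma 3.58.1 on log2(FPKM + 1) or log2(FPKM + 0.1), other filters and factors, an offset for GC content and length (loess, span 0.3), a replicate block and each library left out.

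The genes named were Dnmt3l, the 8 called genes per direction with the highest CPM, the called member of each list with the largest rise and fall (a mean of at least 50 counts in the higher group, no overlap of libraries), and the defining markers. Some genes that the rule names are not reported here. All other named genes were picked with their values in view. The comparison, the lists and the alternatives were chosen with earlier results of these data known. Of the list entries 8 matched no gene of the table and have no value. Gene positions and promoters come from RefSeq GRCm38.p6, to which 23823 genes matched by name. GC content and transcript length are means over a gene's GENCODE transcripts and were available for 23604 genes.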

Additional observations from a re-analysis of the deposited data

How the results depend on the processing

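The number of genes called (802, of which 570 higher and 232 lower) depended most on single libraries. When each library was left out in turn, from 1 to 1139 genes were called, 1 to 825 higher and 0 to 314 lower, and the share of X-linked genes called higher went from 0 to 11.4%. Without Dnmt3l KO replicate 1, 1 gene was called (Gc) and 2485 genes had an unadjusted edgeR p under 0.05. Without WT replicate 1 there were 149 calls (109 higher, 40 lower; 2.93% of X-linked genes higher), and without Dnmt3l KO replicate 2, 374 were higher and 7.49% of X-linked genes were. The offset for GC content and length left 230 calls (181 higher, 49 lower), with 4.89% of X-linked genes called higher, and kept 37 of 112 named genes called. Calls were 530 (374 higher) with limma on log2(FPKM + 1), and 402 were lower with no filter on low counts. The cause was not tested. Apart from the crossed block described next, the other alternatives stayed within 1.5 times of each count. No called gene named here changed direction in any alternative run, but these genes had been selected for large changes in the same libraries. The medians of the meiotic entry, axis, recombination and telomere lists were positive in all 16 alternatives, that of pachytene onset in 12.

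The replicate numbers of WT and Dnmt3l KO share only a number: the deviations of same-numbered libraries correlated at r = -0.144. With a replicate block 912 genes were called (587 higher, 325 lower). A block with the Dnmt3l KO numbers crossed, chosen after seeing the data as was the comparison of X-linked shares, gave 1282 calls (758 higher, 524 lower).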
